A study of Mus musculus with 6 samples.

Results

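The aminoacyl-tRNA synthetases described here are 36 genes, 20 for enzymes of the cytosol and 16 for enzymes of mitochondria, whose symbols end in 2. They were taken by symbol and not by their values. All 36 stood among the 38926 listed symbols, and all 36 were among the 13646 genes that passed the filter on low counts. RNA was sequenced from haematopoietic stem cells (HSCs) sorted by surface markers from mouse fetal liver at E14.5, a stage of embryonic development counted in days. There were 3 control and 3 knockout samples, 1 of each from each of 3 litters. All 6 samples carried Vav-Cre, a recombinase under the Vav promoter, which is active across blood cells, together with a Dpy30 allele flanked by recombination sites. Controls had a wild-type second allele (Vav-Cre; Dpy30F/+) and knockouts lacked it (Vav-Cre; Dpy30F/-), so the Cre and the floxed allele were shared by both groups. The DPY30 protein is shared by the SET1/MLL enzyme complexes that methylate histone H3. The labels do not say how many embryos gave each sample, and p-values measure the spread between these 6 samples.

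Each synthetase joins an amino acid to its tRNAs, and the charged tRNA carries that amino acid to the ribosome. The cytosolic enzymes serve messages of the nuclear genome, and several of them are held in the multi-tRNA synthetase complex. The mitochondrial enzymes are made in the cytosol, imported, and serve only the messages that mitochondrial DNA encodes. Uncharged tRNA activates the kinase GCN2 (Eif2ak4), which raises the translation of the transcription factor ATF4, and ATF4 is known to activate many cytosolic synthetase genes through the C/EBP-ATF response element. Adult HSCs are known for a low rate of protein synthesis.

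The core of that element was found in the promoters of some cytosolic synthetase genes, and these are shown because none of the mitochondrial promoters held it. It was searched as TGATGNAA, with N any base, on both strands of the RefSeq promoter windows of GRCm38.p6. Each window has 300 bases, from 250 before to 50 after the first transcribed base. A window was found for 12 of the 20 cytosolic and 14 of the 16 mitochondrial genes. The core stood in 5 of the 12 cytosolic windows (41.7%), in 0 of the 14 mitochondrial genes, and in 3.97% of all 32851 windows. The 5 sequences run 5′ to 3′ on the strand of the gene, with each match in capitals. A match read as TGATG lies on the strand of the gene, and a match ending in CATCA lies on the other strand.
Aars: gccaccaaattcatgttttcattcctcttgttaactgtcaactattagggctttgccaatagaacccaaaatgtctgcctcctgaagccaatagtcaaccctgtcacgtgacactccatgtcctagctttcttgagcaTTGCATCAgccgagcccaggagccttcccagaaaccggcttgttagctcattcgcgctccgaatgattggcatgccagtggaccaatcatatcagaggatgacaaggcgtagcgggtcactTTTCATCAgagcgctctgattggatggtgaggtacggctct
Gars: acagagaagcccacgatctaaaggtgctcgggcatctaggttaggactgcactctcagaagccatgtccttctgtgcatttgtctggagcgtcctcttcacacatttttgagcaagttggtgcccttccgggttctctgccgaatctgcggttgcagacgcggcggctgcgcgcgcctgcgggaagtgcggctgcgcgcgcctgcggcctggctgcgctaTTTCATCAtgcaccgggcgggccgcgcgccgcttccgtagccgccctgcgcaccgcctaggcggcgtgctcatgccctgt
Iars: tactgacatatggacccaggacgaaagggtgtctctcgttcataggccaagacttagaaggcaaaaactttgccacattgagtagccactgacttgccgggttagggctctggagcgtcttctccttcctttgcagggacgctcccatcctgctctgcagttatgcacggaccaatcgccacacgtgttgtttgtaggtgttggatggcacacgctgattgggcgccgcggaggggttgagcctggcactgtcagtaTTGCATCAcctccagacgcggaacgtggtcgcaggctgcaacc
Tars: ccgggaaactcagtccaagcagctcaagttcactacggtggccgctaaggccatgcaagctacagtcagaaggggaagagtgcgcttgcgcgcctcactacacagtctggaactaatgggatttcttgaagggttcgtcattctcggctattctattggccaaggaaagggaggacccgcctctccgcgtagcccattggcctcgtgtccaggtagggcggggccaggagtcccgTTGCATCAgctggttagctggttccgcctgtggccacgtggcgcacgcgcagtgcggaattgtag
Yars: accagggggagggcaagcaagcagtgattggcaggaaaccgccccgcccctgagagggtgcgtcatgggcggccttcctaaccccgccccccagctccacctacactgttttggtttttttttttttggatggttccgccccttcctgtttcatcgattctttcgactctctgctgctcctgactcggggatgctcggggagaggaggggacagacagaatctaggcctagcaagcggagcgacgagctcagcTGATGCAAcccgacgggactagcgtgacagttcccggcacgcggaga
These windows lie at chr8:111033592-111033891 for Aars, the alanyl enzyme, chr6:55037751-55038050 for Gars, the glycyl enzyme, and chr13:49681880-49682179 for Iars, the isoleucyl enzyme, all on the plus strand. The window of Tars, the threonyl enzyme, is chr15:11399609-11399908 on the minus strand, and that of Yars, the tyrosyl enzyme, is chr4:129189653-129189952 on the plus strand. Aars held 2 matches, which began 112 bases before and 9 bases after the first transcribed base. The match of Gars began 30 bases before it and that of Tars 15 bases before it. The match of Iars began 7 bases after it and that of Yars 3 bases after it. These are matches of letters in a window, and no binding was measured.

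The libraries held 31897737 to 43394700 counts assigned to genes, with 35559444 to 43394700 in the controls and 31897737 to 36679347 in the knockouts. Dpy30 itself was 24.6, 24.2 and 31.6 counts per 1000000 assigned counts (CPM) in the controls and 7.93, 5.95 and 13.7 CPM in the knockouts, with no overlap. In edgeR's quasi-likelihood test its log2 fold change of -1.55 had an SE of 0.46 and an adjusted p of 0.672. CPM here are scaled by the trimmed mean of M values (TMM). Correlations between libraries over all genes tested were 0.856 to 0.880 among the controls and 0.720 to 0.773 among the knockouts. All 13 HSC and progenitor markers were detected, with a summed level of 709 to 748 CPM in controls and 315 to 1060 CPM in knockouts. The knockout of litter 3 stood apart: it had 954 counts of Hlf, an HSC transcription factor, against 5796 and 8343 in the other knockouts, and 24901 counts of Lyz2, a macrophage and granulocyte gene, against 9249 and 4131. The 9 macrophage markers summed to 325 to 539 CPM in controls and 342 to 1670 CPM in knockouts. Of these 9, 4 were higher in every knockout than in every control, against 6.39% of all genes tested. The 8 granulocyte markers summed to 59.5 to 124 CPM in controls and 69.1 to 400 CPM in knockouts. The 8 erythroid markers spanned 494 to 1150 CPM in controls and 341 to 1150 CPM in knockouts, and the 6 megakaryocyte markers 47.5 to 88.9 CPM and 51.0 to 72.9 CPM. The 7 lymphoid markers stayed at or below 15.9 CPM, with Cd3e and Cd3g at 0 in all 6 libraries. The 7 hepatocyte markers stayed at or below 20.1 CPM. Of these, Apoa1 and Serpina1a were at 0 in all knockouts and Fgb at 0 in all controls. Counts of Apoa1 were 28, 0 and 3 in controls, those of Serpina1a 0, 3 and 0, and those of Fgb 0, 0 and 33 in knockouts. By the same measure the HSC, granulocyte, megakaryocyte and lymphoid lists each had 1 gene higher in every knockout, and the erythroid and hepatocyte lists 0. The megakaryocyte and hepatocyte lists each had 1 gene lower in every knockout, and the other lists 0. In bulk samples, fewer cells of a type and less RNA per cell cannot be told apart. The part of other cell types in the results on the synthetases was not tested.

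The median level in controls was higher for the cytosolic than for the mitochondrial genes, while the ranges of the 2 compartments overlapped. Levels of different genes are given as CPM per kilobase of the longest protein-coding transcript in the GENCODE M21 annotation, and a cell may use a shorter one. The median of the 20 cytosolic genes was 20.7 and that of the 16 mitochondrial genes 3.77 CPM per kilobase. Nars, the asparaginyl enzyme, was the highest cytosolic gene at 71.2 ± 5.51 CPM per kilobase (SD, n = 3). It was followed by Eprs, a fused enzyme for glutamate and proline, at 57.2 ± 6.45, and by Iars at 47.3 ± 1.22. Down this order of levels, Nars and Eprs, Eprs and Iars, and further down Mars and Tars were the only cytosolic neighbours whose control values did not overlap. Cars, the cysteinyl enzyme, was the lowest at 4.61 ± 1.89 CPM per kilobase. In mitochondria, Lars2, the leucyl enzyme, stood at 551 ± 163 CPM per kilobase, followed by Iars2 at 8.10 ± 1.42. The lowest were Pars2, the prolyl enzyme, at 1.16 ± 0.226 and Mars2, the methionyl enzyme, at 0.907 ± 0.416 CPM per kilobase. The rank of Mars2 rests on its annotated transcript of 11294 bases, the longest of the members. Before length is taken into account, Mars2 had a mean of 10.25 CPM in controls. That was above Aars2, Cars2, Ears2, Fars2, Sars2 and Pars2, the last at 3.535 CPM. The control values of Lars2 and Iars2 did not overlap, nor did those of Fars2 and Pars2, and all other mitochondrial neighbours overlapped.

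For 13 amino acids both a cytosolic and a mitochondrial gene with matching symbols were present. In 12 of the 13 pairs the cytosolic gene had the higher level per length in controls. Leucine was the exception, and how far reads of other origin enter the Lars2 count was not tested. The ratio in the other 12 ran from 1.63 for tyrosine to 21.9 for methionine, with a median of 4.63. The ratio for methionine rests on the annotated length of Mars2, 11294 bases. Before length is taken into account, Mars had 58.82 and Mars2 10.25 CPM in controls. Summed over genes, the cytosolic synthetases took 1656, 1636 and 1572 CPM in controls and 1341, 1525 and 1526 CPM in knockouts, with no overlap. The means were 1621 ± 43.9 against 1464 ± 106 (SD, n = 3 per genotype). This separation rests on TMM scaling, with factors of 0.747 for the control and 1.25 for the knockout of litter 1. As counts before any scaling, the sums were 47950, 61185 and 69297 in controls and 53313, 55325 and 53446 in knockouts, which overlapped. The mitochondrial genes other than Lars2 took 245, 183 and 192 CPM in controls and 180, 222 and 169 CPM in knockouts, which overlapped. The ratio of the sums was 7.96 ± 1.10 for controls against 7.78 ± 1.11 for knockouts.

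**Figure D1:**
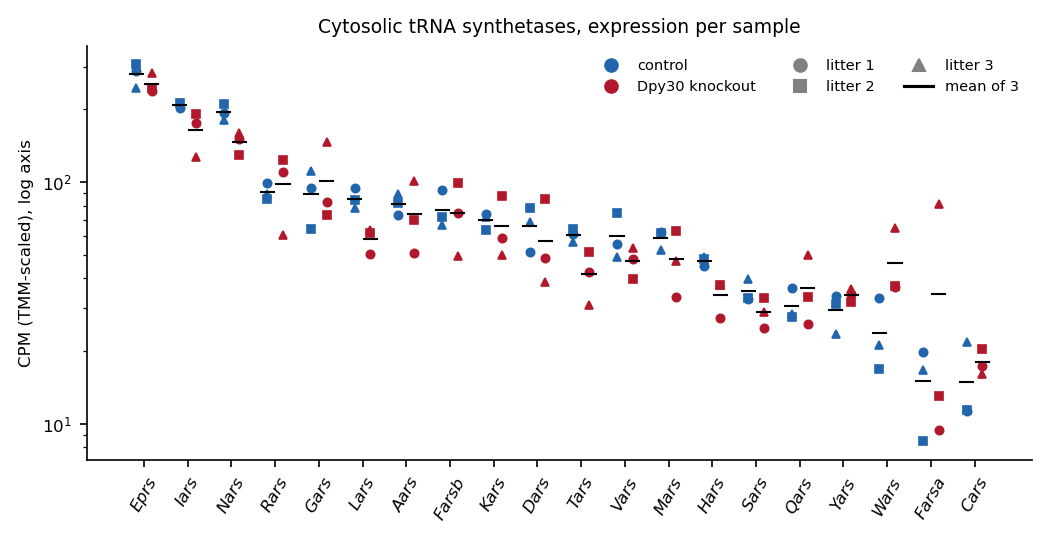
Level of the 20 cytosolic synthetase genes in each sample, in TMM-scaled CPM on a log axis, with controls in blue, knockouts in red, a marker shape per litter and a bar at each mean of 3. The 3 knockouts of Hars, Iars, Lars, Nars and Tars lie below the 3 controls, those of Wars lie above them, and the knockout of litter 3 carries the high Farsa value of 81.2 CPM.

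Loss of Dpy30 was set against control for each gene in a fit over all 13646 genes. None of the 20 cytosolic and none of the 16 mitochondrial genes passed an adjusted p of 0.05 in edgeR's quasi-likelihood test, and of all genes tested 0 did (0%). The smallest adjusted p of a member was 0.758 in edgeR and 0.406 in DESeq2. DESeq2 called 139 of all genes (1.02%) and limma-voom 0, and neither called a member. At an unadjusted p under 0.05 edgeR had 888 of all genes (6.51%), 4.26% higher and 2.24% lower in knockouts. Of the members, Wars lay on the higher side and Lars on the lower. The knockouts did not overlap the controls for 6 of 20 cytosolic and 1 of 16 mitochondrial genes, against 14.1% of all genes tested. On the lower side these were 5 cytosolic genes and 1 mitochondrial gene, against 7.74% of all genes, and on the higher side 1 cytosolic gene and 0 mitochondrial genes, against 6.39%. Without the knockout of litter 3 there were 8 cytosolic genes and 1 mitochondrial gene on the lower side, against 12.9% of all genes, and 2 and 1 on the higher side, against 12%. Without the knockout of litter 2 there were 9 cytosolic and 5 mitochondrial genes on the lower side, against 15.5%, and 2 and 0 on the higher side, against 13.3%. Leaving out the knockout of litter 1 gave 5 cytosolic genes and 1 mitochondrial gene on the lower side, against 18%. On the higher side it gave 1 and 2, against 12.8%.

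By sign, 7 cytosolic log2 fold changes were above 0 and 13 below it, with a median of -0.14 and a range of -0.55 to 1.21. For the mitochondrial genes 6 were above and 10 below 0, with a median of -0.12 and a range of -1.11 to 1.16. Of all genes tested 49.2% were below 0, with a median of 0.02. The medians of the compartments differed by -0.01, cytosolic minus mitochondrial. Within litters 1, 2 and 3 that difference was 0.01, -0.19 and 0.33, with an SD of 0.26 over litters, so the compartments did not differ beyond the spread between litters. The direction of both medians depended on the scaling. With library size as the only scaling they were 0.04 and 0.08, while the median of all genes was 0.23, so that relative to all genes they were -0.18 and -0.15. With litter as a block the mitochondrial median was -0.41 and the cytosolic one -0.16, against -0.12 for all genes. Without the knockout of litter 3 they were -0.11 and -0.20.

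**Figure D2:**
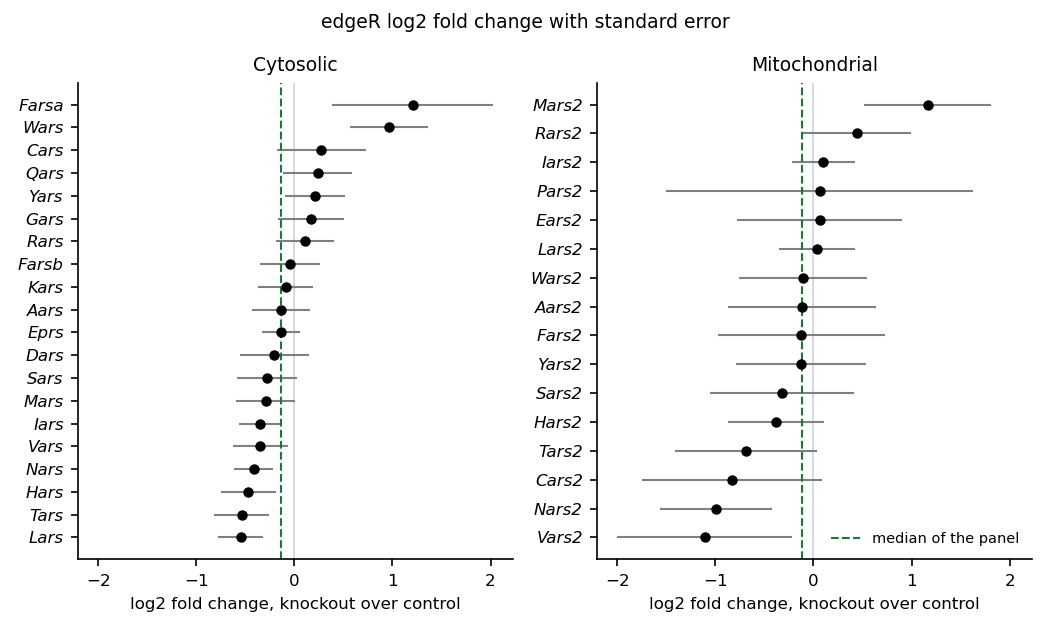
Log2 fold change of each synthetase gene, knockout over control, from edgeR, with its standard error as a bar and the median of each panel as a dashed line. The 20 cytosolic genes lie between -0.55 and 1.21 and the 16 mitochondrial genes between -1.11 and 1.16, with wider bars for most of the latter.

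Wars, the tryptophanyl enzyme (chromosome 12, 108860030 to 108894174 of GRCm38, minus strand), had the smallest p of the members. Its counts were 960, 628 and 936 in the controls of litters 1, 2 and 3 and 1465, 1349 and 2270 in the knockouts. These are 33.2, 16.8 and 21.2 CPM against 36.9, 37.2 and 64.8 CPM. Every knockout was above every control, though the knockout and control of litter 1 differed by only 0.15 on the log2 scale. The log2 fold change was 0.96 (SE 0.40), or 1.95-fold, with an edgeR p of 0.0412 and an adjusted p of 0.758. Without the knockout of litter 3 it was 0.66, with an edgeR adjusted p of 0.733. WARS is known as a gene that interferon gamma induces.

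Lars, the cytosolic leucyl enzyme and a part of the multi-tRNA synthetase complex (chromosome 18, 42202298 to 42262194, minus strand), lay on the other side. It had 94.3, 84.0 and 78.0 CPM in controls, from 2732 to 3438 counts, and 50.5, 61.6 and 63.1 CPM in knockouts, from 2008 to 2235 counts. The groups did not overlap and the knockout was lower in all 3 litters. The log2 fold change was -0.55 (SE 0.23), to 68.4% of control, with an edgeR p of 0.0435 and an adjusted p of 0.759. LARS is also known as a leucine sensor of the mTORC1 pathway. Of the 36 members, Lars was the only one whose knockouts all lay below the controls under each of the 5 scalings tried.

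The other cytosolic genes with all knockouts below all controls were Nars, Iars, Hars and Tars. Nars (chromosome 18, 64499647 to 64516652) had 194, 211 and 181 CPM in controls and 151, 129 and 159 CPM in knockouts, a log2 fold change of -0.42 (SE 0.20, edgeR adjusted p = 0.775). Iars (chromosome 13, 49682100 to 49734267) had 203, 212 and 213 CPM against 176, 191 and 127 CPM, a log2 fold change of -0.35 (SE 0.22, edgeR adjusted p = 0.844). Its controls lay within a coefficient of variation (CV) of 2.57%, and the knockout of litter 3 was the lowest of the 6. Without that knockout the log2 fold change of Iars was -0.18. Hars, the histidyl enzyme (chromosome 18, 36766528 to 36783205), had 45.0, 48.1 and 49.0 CPM against 27.4, 37.4 and 37.6 CPM, a log2 fold change of -0.47 (SE 0.28, edgeR adjusted p = 0.830). Tars (chromosome 15, 11382301 to 11399665) had 60.9, 64.0 and 56.7 CPM against 42.5, 51.6 and 30.9 CPM, a log2 fold change of -0.54 (SE 0.28, edgeR adjusted p = 0.797), which was -0.35 without the knockout of litter 3. All 4 were lower in the knockout of each litter. An exact permutation test of any 1 of these genes in 3 against 3 samples cannot go below p = 0.1, the value each of the 5 had. With library size as the only scaling, Nars, Iars, Hars and Tars overlapped between groups, and only Lars of the 5 did not. Iars shares 2251 aligned bases at 94.7% identity with the processed pseudogene Gm4849, so its reads may be divided between them.

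The widest cytosolic value was that of Farsa, which encodes the alpha subunit of the phenylalanyl enzyme. It had 19.8, 8.45 and 16.7 CPM in controls and 9.41, 13.0 and 81.2 CPM in knockouts. The knockout of litter 3 alone was high, and the other 2 knockouts lay within the control range. Its log2 fold change of 1.21 had an SE of 0.82 and an edgeR adjusted p of 0.859, and without that library the value was -0.40. Farsb, the beta subunit of the same enzyme, had 92.4, 71.8 and 66.5 CPM in controls and 74.4, 99.4 and 49.6 CPM in knockouts, so that the knockout of litter 3 was its lowest sample. The level of Farsa over that of Farsb, each per length, was 0.131 to 0.279 in controls, 0.141 and 0.146 in the knockouts of litters 1 and 2, and 1.83 in the knockout of litter 3.

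The remaining 13 cytosolic genes overlapped between groups, with log2 fold changes from -0.35 for Vars, the valyl enzyme, to 0.28 for Cars. Cars, the lowest by level, had 11.3, 11.4 and 21.9 CPM in controls and 17.4, 20.4 and 16.1 CPM in knockouts. Eprs, whose 288.7, 307.3 and 245.6 CPM in controls were the most of any cytosolic gene before length is taken into account, had 238, 244 and 283 CPM in knockouts and a log2 fold change of -0.14 (SE 0.19). Gars and Kars, the lysyl enzyme, each encode both a cytosolic and a mitochondrial form, and had log2 fold changes of 0.17 (SE 0.34) and -0.09 (SE 0.28). Yars was higher in the knockout of all 3 litters, by 0.02, 0.03 and 0.62 on the log2 scale, with groups that overlapped. Of the 20 cytosolic genes 2 were higher and 5 lower in every litter, or 10% and 25%, against 12.3% and 15.9% of all genes tested.

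Of the 8 enzymes of the multi-tRNA synthetase complex (Dars, Eprs, Iars, Kars, Lars, Mars, Qars and Rars), 2 had log2 fold changes above 0 and 6 below it, with a median of -0.17. Of the 12 cytosolic enzymes outside it, 5 were above and 7 below 0, with a median of -0.09. The scaffold proteins of the complex had log2 fold changes of 0.49 (SE 0.44) for Aimp1, -1.24 (SE 0.96) for Aimp2 and 0.07 (SE 0.48) for Eef1e1, none past the test. Synthetases also fall into class I, with a Rossmann fold at the active site, and class II, with an antiparallel beta sheet. The 18 class I genes of both compartments had a median of 0.05, with 10 above and 8 below 0. The 17 class II genes had a median of -0.20, with 3 above and 14 below 0. Litter by litter, the class I medians were -0.21, 0.22 and -0.23 and the class II medians -0.40, 0.04 and -0.42.

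The promoters with the C/EBP-ATF core printed above were not all on the same side. Tars and Iars were among the genes with all knockouts below all controls, Aars had a log2 fold change of -0.14 (SE 0.30), and Gars and Yars were at 0.17 and 0.21. The median of these 5 was -0.14, and that of the 7 cytosolic genes with a window and no match was -0.09. Hars, Lars, Nars and Wars, whose groups did not overlap, had no window and are in neither set.

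**Figure D3:**
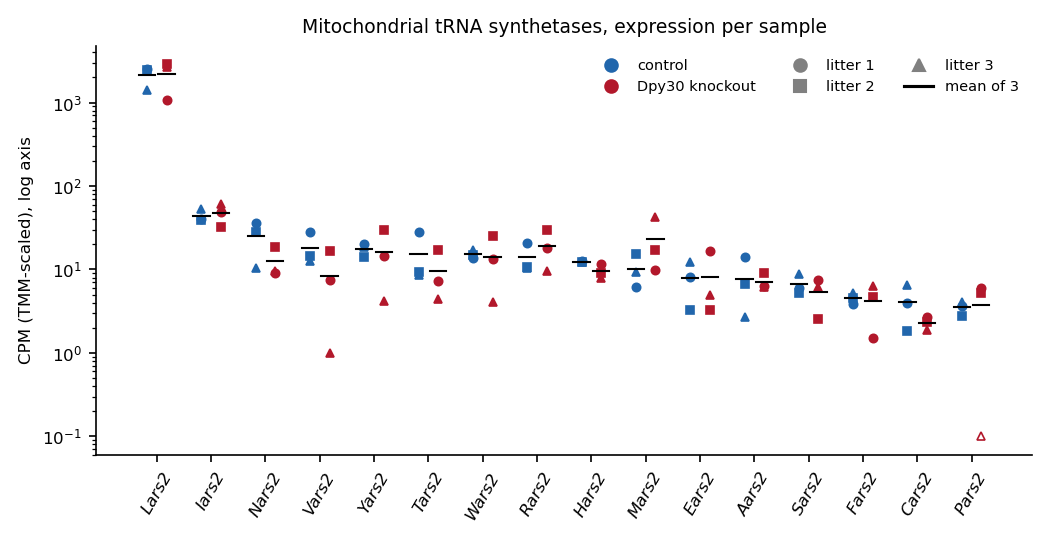
Level of the 16 mitochondrial synthetase genes in each sample, in TMM-scaled CPM on a log axis, with controls in blue, knockouts in red, a marker shape per litter and a bar at each mean of 3. Lars2 lies above 1000 CPM in all 6 samples, the other 15 genes below 62 CPM, and the open symbol marks the 0 counts of Pars2 in the knockout of litter 3.

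Among mitochondrial genes, Hars2, the histidyl enzyme (chromosome 18, 36783008 to 36792562, plus strand), was the only one whose groups did not overlap. It had 12.6, 12.2 and 12.4 CPM in controls and 11.5, 8.98 and 7.94 CPM in knockouts. The control values, from 364, 455 and 546 counts, had a CV of 1.62%, below the control CV of any other member. It is also below the median of 4.70% that counting error alone gives for the mitochondrial genes, so 3 samples cannot fix a spread this small. The knockout of litter 1 lay close to the lowest control. In edgeR the log2 fold change of -0.39 had an SE of 0.49 and an adjusted p of 0.932, and with library size as the only scaling the groups overlapped. Hars and Hars2 lie head to head and share 195 exonic bases on opposite strands. Their transcripts are 74.7% identical over 1321 aligned bases, and the processed pseudogene Gm14890 is 89.4% identical to that of Hars2 over 678 bases, so these values are uncertain where reads could be divided.

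The highest mitochondrial log2 fold change was that of Mars2 (chromosome 1, 55237177 to 55248470, plus strand). It had 6.11, 15.4 and 9.28 CPM in controls and 9.74, 17.0 and 42.1 CPM in knockouts. The knockout was higher in each litter, by 0.67, 0.15 and 2.18 on the log2 scale, but the groups overlapped. Its log2 fold change of 1.16 had an SE of 0.65 and an edgeR adjusted p of 0.802, and was 0.39 without the knockout of litter 3. The lowest was that of Vars2, the valyl enzyme (chromosome 17, 35655634 to 35667592, minus strand), with 27.8, 14.3 and 12.6 CPM in controls and 7.52, 16.8 and 1.00 CPM in knockouts. Its log2 fold change of -1.11 had an SE of 0.89 and an edgeR adjusted p of 0.877, and was -0.57 without the knockout of litter 3, where it had 35 counts, -0.67 without the control of litter 1 and -2.10 without the knockout of litter 2.

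Nars2 and Pars2 are named after their values were seen. Nars2, the asparaginyl enzyme, had 35.8, 28.4 and 10.5 CPM in controls and 9.08, 18.8 and 9.57 CPM in knockouts. The knockout was lower in each litter, and the control of litter 3 lay among the knockouts. For Nars2 the log2 fold change of -0.996 had an SE of 0.57 and an edgeR adjusted p of 0.815, and was -0.64 without the control of litter 1. Pars2 had 107, 104 and 182 counts in controls and 235, 188 and 0 counts in knockouts. The count of 0 in the knockout of litter 3 allows a level of up to 0.0857 CPM, taken as 3 counts, while the other knockouts had 5.91 and 5.18 CPM and the controls 2.78 to 4.13 CPM. The log2 fold change of Pars2 was 0.065 (SE 1.56), and 0.66 without that library. The other 11 mitochondrial genes overlapped between groups, with log2 fold changes from -0.83 for Cars2 to 0.44 for Rars2. Of the 16 genes 1 was higher and 2 were lower in every litter, against 12.3% and 15.9% of all genes tested.

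Lars2 (chromosome 9, 123366927 to 123462666, plus strand) exceeded every other synthetase. It had 2538, 2490 and 1413 CPM in controls and 1081, 2890 and 2640 CPM in knockouts, from 42954 to 104881 counts. The lowest and the highest values were both knockouts. Lars2 alone held 41.5 to 62.3% of all counts of the 36 genes, or 53.1% ± 7.51 for controls against 54.9% ± 11.6 for knockouts (SD, n = 3 per genotype). The log2 fold change of Lars2 was 0.04, with an SE of 0.39 and an edgeR adjusted p of 0.994. A stretch of 72 bases in the last part of its longest transcript is 98.6% identical to Gm15564, a separate gene in the annotation. Gm15564 had 161, 136 and 55.7 CPM in controls and 33.0, 164 and 76.6 CPM in knockouts. In both genes the knockout of litter 1 was the lowest sample and that of litter 2 the highest. The search for shared sequence kept only matches to pseudogenes, to other members and to Gm15564. Matches of Lars2 to other genes, the mitochondrial rRNAs among them, were therefore not listed. How far reads of other origin enter the Lars2 count was not tested.

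**Figure D4:**
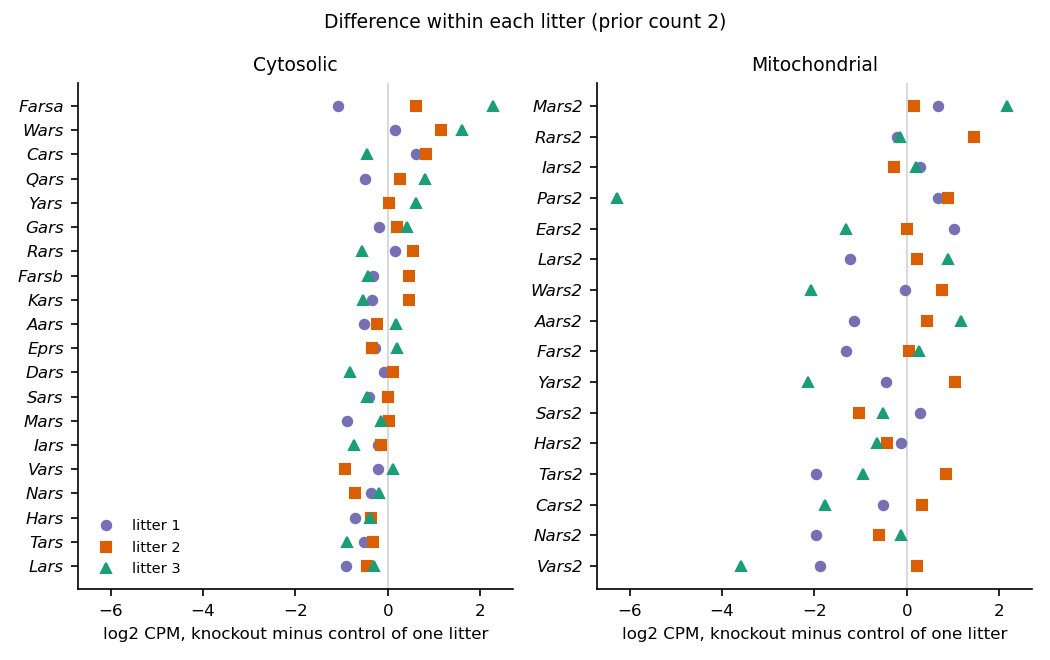
Difference between the knockout and the control of the same litter for each synthetase gene, in log2 CPM with a prior count of 2, with a symbol per litter. The cytosolic genes stay within 2.3 of 0 and most within 1, while Pars2 reaches -6.27 and Vars2 -3.59 in litter 3.

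Knockout and control were also compared within each litter. The median level in controls was 63.3 CPM for the cytosolic genes, 13.2 CPM for the mitochondrial genes and 10.2 CPM for all genes tested. Genes of like level were not compared. Differences of more than 1 on the log2 scale between the knockout and the control of a litter were seen for 1, 1 and 2 of the 20 cytosolic genes in litters 1, 2 and 3, or 5%, 5% and 10%. For the 16 mitochondrial genes there were 7, 3 and 8, or 43.8%, 18.8% and 50%, against 37.2%, 42.2% and 51.7% of all genes tested. In litter 1, 6 of the 7 were lower in the knockout, in litter 2 it was 1 of 3, and in litter 3 it was 6 of 8. Of the differences this large over all genes tested, 44.2%, 61.2% and 60.3% were lower in the knockout. The medians of the cytosolic genes in litters 1, 2 and 3 were -0.32, 0.03 and -0.25, and those of the mitochondrial genes -0.33, 0.22 and -0.58, against 0.021, -0.076 and -0.17 for all genes tested. So the knockout of litter 2 lay at or above its control by these medians, while those of litters 1 and 3 lay below. The values of litter 1 depend on TMM, with factors of 0.747 for its control and 1.25 for its knockout. Before scaling, the cytosolic counts of litter 1 summed to 53313 in the knockout and 47950 in the control. The sum was thus higher in the knockout, although it had fewer assigned counts, 31897737 against 38807387. The knockout of litter 3 was the lowest sample for 7 of 16 mitochondrial genes (43.8%) and 6 of 20 cytosolic genes (30%), against 29.1% of all genes tested, and the highest for 3 and 6 of them (18.8% and 30%), against 25.6%. In TMM-scaled CPM, the knockout of litter 1 was the lowest sample for 7 of 20 cytosolic genes (35%), against 14.3% of all genes tested. Yars2, the tyrosyl enzyme, is named after its values were seen. It had 19.9, 14.2 and 18.5 CPM in controls and 14.6, 29.4 and 4.14 CPM in knockouts, the same directions over litters as the mitochondrial medians. Not all mitochondrial genes had them. Aars2 differed by -1.14, 0.44 and 1.18 on the log2 scale in litters 1, 2 and 3, and Sars2 by 0.28, -1.03 and -0.51.

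Knockout samples differed more from each other than controls did. The median CV of the cytosolic genes was 11.2% in controls and 27.5% in knockouts, and that of the mitochondrial genes 36.0% and 55.6%. Over all genes tested it was 33.7% and 58.4%. The CV was larger in knockouts for 15 of 20 cytosolic and 12 of 16 mitochondrial genes, 75.0% in each, and for 74.6% of all genes tested, so this was shared with the other genes. Counting error alone gives a median CV of 2.171% for the cytosolic genes, 4.70% for the mitochondrial genes and 5.01% for all genes tested. Each is below the median CV seen in either genotype. The cytosolic genes had a median level in controls of 63.3 CPM, against 10.2 CPM for all genes tested. Their smaller CV was not compared with that of genes of like level. The lowest count of a cytosolic gene in any library was 316, and the highest of a mitochondrial gene other than Lars2 was 2347.

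**Figure D5:**
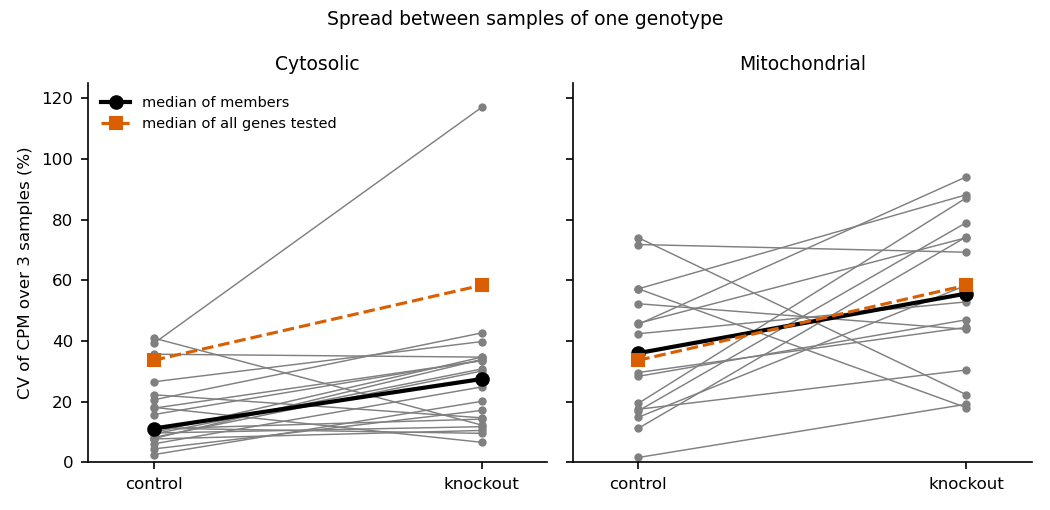
Coefficient of variation of CPM over the 3 samples of each genotype, in percent, with a grey line per gene, the median of the members in black and the median of all genes tested in orange. The cytosolic median goes from 11.2% to 27.5% and stays below that of all genes, and the mitochondrial median goes from 36.0% to 55.6%, close to it. The genes tested were not matched to the members by level.

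In the pairs for the same amino acid, 7 of 13 had log2 fold changes of the same sign. Both were below 0 for alanine, histidine, asparagine, serine, threonine and valine, and both above 0 for arginine. The 6 other pairs had opposite signs, among them tryptophan, with 0.96 for Wars and -0.11 (SE 0.65) for Wars2, and methionine, with -0.29 (SE 0.30) for Mars and 1.16 for Mars2. No member of any pair passed the test.

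Other genes of the charging pathway were taken as lists, and no list had a gene past an adjusted p of 0.05 in edgeR. Of 27 listed ATF4 pathway genes 26 were tested, with 9 log2 fold changes above 0, 17 below it and a median of -0.26. Atf4 itself had 61.8 ± 12.7 CPM for controls against 57.1 ± 24.6 CPM for knockouts (SD, n = 3 per genotype), and Asns, the asparagine synthetase and a standard ATF4 target, was 94.8 ± 6.81 and 71.9 ± 11.3 CPM. All knockouts lay below all controls for 5 of the 26 and above them for 2, against 7.74% and 6.39% of all genes tested. Whether the list differs from all genes was not tested. Few genes had an unadjusted edgeR p under 0.05. There were 2 of 26 higher and 1 lower, against 4.26% and 2.24% of all genes tested. Sesn2, a stress-induced inhibitor of mTORC1, was one, with 23, 254 and 166 counts in controls and 270, 1183 and 2011 in knockouts. Its log2 fold change was 3.09 (SE 0.97), with an adjusted p of 0.686 in edgeR and 0.0300 in DESeq2, which called it alone of this list, and without the knockout of litter 3 it was 2.38 (edgeR adjusted p = 0.645). Cebpb, a partner of ATF4 and also a myeloid transcription factor, had 17, 10 and 13 counts in controls and 101, 9 and 331 in knockouts, a log2 fold change of 3.405 (SE 1.46, edgeR adjusted p = 0.762), which was 1.88 without the knockout of litter 3. Slc7a1, an arginine and lysine transporter, had a log2 fold change of -0.61 (SE 0.21, edgeR adjusted p = 0.727), at 123 ± 13.6 CPM for controls against 80.2 ± 7.44 CPM for knockouts.

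The 5 genes of the kinase list, upstream of ATF4, had a median of 0.35. Eif2ak4, the sensor of uncharged tRNA, had 17.5 ± 1.30 CPM for controls against 28.1 ± 10.3 CPM for knockouts (SD, n = 3 per genotype), with groups that overlapped and an edgeR adjusted p of 0.833. Eif2ak3, the kinase of the endoplasmic reticulum, was 5.83 ± 0.764 and 1.63 ± 0.696 CPM with no overlap, and had a log2 fold change of -1.84 (SE 0.86, edgeR adjusted p = 0.775). Among the 5 cytosolic elongation factors, which use charged tRNA, the median was -0.29, and Eef1g, a subunit of the exchange factor, was at -0.82 (SE 0.27, edgeR adjusted p = 0.709), at 143 ± 12.3 CPM for controls against 81.4 ± 24.1 CPM for knockouts with no overlap. The 10 mitochondrial translation factors had a median of 0.01, with 5 above and 5 below 0. In the amidotransferase that completes mitochondrial glutaminyl-tRNA, Gatc was at -0.47 (SE 0.34), Gatb, listed as Pet112, at -0.67 (SE 0.74) and Qrsl1 at 0.33 (SE 0.87). The 10 genes of tRNA modification and processing had a median of 0.10, and Trmu, which thiolates mitochondrial tRNAs, had 92, 200 and 423 counts in controls and 62, 61 and 0 in knockouts, with no overlap in CPM and an edgeR adjusted p of 0.844. Of the 13 mRNAs of mitochondrial DNA 8 were tested, and all 8 log2 fold changes were below 0, with a median of -0.44. Their litter medians were -1.37, 0.14 and 0.14, so only litter 1 had a median below 0. Of the 8, mt-Atp6 had only 17, 11 and 15 counts in controls and 5, 4 and 10 in knockouts, so its value is near the floor.

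Overlap between annotated genes limits some of these counts. Of the 36 members 13 share exonic bases with another gene, all 13 with a gene on the opposite strand, and whether the counting used strand is not given in the sources used here. The longest such overlap was that of Iars2 with Rab3gap2, at 2034 bases. Mars shares 68 bases with Ddit3, an ATF4 target. Aars also shares 1326 bases with Exosc6 on its own strand. Reads in such stretches could be left out or counted for either gene.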

How the data were processed

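Per the labels' protocols, total RNA of sorted fetal liver HSCs went through poly(A) selection in 2 rounds and library preparation. The submitters' processing notes name CASAVA 1.8.4, TopHat2, Picard 1.126, HTSeq 0.6.0, DESeq 3.0, bedtools 2.17.0 and mm10, and the role of each is not stated there. The deposited values are raw read counts per gene symbol, 1 table per sample, with no normalization by the authors. Rows that name no gene were left out: reads with no gene were 41.0 to 51.0% of all reads and ambiguous reads 0.780 to 0.919%. The mitochondrial rRNAs mt-Rnr1 and mt-Rnr2 took 54.9% ± 6.18 of assigned counts for controls against 47.2% ± 2.93 for knockouts (SD, n = 3 per genotype).

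The members and lists were chosen with earlier results of these data known. Genes were filtered with filterByExpr, scaled by TMM and tested with edgeR 4.0.16 (glmQLFit, glmQLFTest, R 4.3.3) over all genes kept; p-values were adjusted by Benjamini-Hochberg, and calls used 0.05. The standard error is the log2 fold change over the root of F. TMM factors were 0.747 for the control and 1.25 for the knockout of litter 1, and 0.990 to 1.05 for the others. DESeq2 1.42.0, limma 3.58.1, other scalings and filters, a litter block and leaving out each library were alternatives. DESeq2 gave no adjusted p for 784 genes. The labels state the litter of each sample, so litter pairs the samples. The deviations of the 2 samples of a litter from their group means correlated at -0.022, -0.075 and 0.003. The scripts were tested on simulated data. No 2 tables were identical.

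Members were described in full where they had an unadjusted p under 0.05, had groups that did not overlap, or were the extremes by log2 fold change or level in a compartment, and up to 3 genes of each list by p. Gene positions and lengths are from GENCODE M21 on GRCm38, the assembly of mm10, and the release the authors used may differ. Gatb was matched to Pet112, Adgre1 to Emr1 and Epb42 to Epb4.2 through RefSeq synonyms. Promoters are from RefSeq. They were matched by symbol only, and synonyms were not searched. Cars, Hars, Lars, Mars, Nars, Rars, Vars, Wars, Hars2 and Pars2 had no window under these symbols. No protein sequence was used here.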

Additional observations from a re-analysis of the deposited data

How the results depend on the processing

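No member passed an adjusted p of 0.05 under any alternative, and the smallest value reached was 0.383, without the knockout of litter 1. Over 539 combinations of a gene and an alternative, 494 had the same direction and 45 the other, and 16 of 36 genes kept their direction throughout. Wars ranged from 0.66 to 1.28 and Lars from -0.68 to -0.34 over all alternatives. With litter as the replicate block, which pairs the samples, Aars2 was 0.17, Ears2 -0.095, Lars2 -0.027 and Pars2 -0.76, and the difference of the compartment medians was 0.25. limma-voom gave 0.30, -0.085, -0.026 and -2.13 for these genes and 0.26 for the difference. The block changed no other direction, and lowered the members with an unadjusted p under 0.05 from 2 to 0. With upper-quartile scaling Ears2 was -0.035, Iars2 -0.039, Lars2 -0.095 and Pars2 -0.003. With library size as the only scaling, which moved the median of all genes to 0.23, Aars was 0.023, Eprs 0.065, Farsb 0.19, Kars 0.11, Aars2 0.19, Wars2 0.073 and Yars2 0.083.

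The alternatives for groups that do not overlap were chosen after seeing the data. Library size only gave 2 cytosolic genes higher (Qars and Wars; 9.29% of all genes), 1 lower (Lars; 4.05%) and 0 mitochondrial genes lower, and upper-quartile scaling gave 8 cytosolic genes lower (10%). Leaving out each library gave 1 to 2 cytosolic genes higher and 5 to 9 lower, and 0 to 2 mitochondrial genes higher and 1 to 5 lower, the most without the knockout of litter 2 for both lower counts and without that of litter 1 for the mitochondrial higher count, against 8.93 to 13.3% higher and 11.7 to 18% lower of all genes. In the same alternatives the difference of medians ran from -0.16 to 0.18, the cytosolic median from -0.27 to -0.07 and the mitochondrial one from -0.29 to 0.003. The genes that changed direction ran from -0.42 to 0.071 for Aars, -0.60 to 0.025 for Dars, -0.40 to 1.65 for Farsa, -0.31 to 0.19 for Farsb, -0.19 to 0.36 for Gars, -0.36 to 0.083 for Kars, -0.044 to 0.43 for Qars and -0.095 to 0.37 for Rars. In mitochondria they ran from -0.53 to 0.62 for Aars2, -0.96 to 0.53 for Ears2, -0.54 to 0.27 for Fars2, -0.12 to 0.31 for Iars2, -0.20 to 0.36 for Lars2, -0.44 to 0.66 for Pars2, -0.026 to 0.85 for Rars2, -0.62 to 0.015 for Sars2, -1.40 to 0.082 for Tars2, -0.81 to 0.34 for Wars2 and -0.90 to 0.34 for Yars2. Without the knockout of litter 3, 10 of 36 genes changed direction. Genes that kept it but moved by over 1.5 times ranged from 0.11 to 0.66 for Cars, -0.23 to -0.065 for Eprs, -0.46 to -0.18 for Iars, -0.54 to -0.092 for Mars, -0.38 to -0.18 for Sars, -0.72 to -0.35 for Tars, -0.47 to -0.15 for Vars, 0.069 to 0.32 for Yars, -1.18 to -0.33 for Cars2, 0.39 to 1.57 for Mars2, -1.42 to -0.64 for Nars2 and -2.10 to -0.57 for Vars2. The cause of these changes was not tested.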
